A study of Mus musculus with 2 samples.

Results

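The genes described here were the fibrillar collagens *Col1a1*, *Col1a2*, *Col3a1*, *Col5a1*, *Col5a2*, *Col5a3*, *Col2a1*, *Col11a1* and *Col11a2*, followed across the cell types of mouse periosteum. They were chosen by name from the gene symbols of the deposited count matrices, and all 9 were found among the 31253 features of both. The periosteal cells came from femurs and tibias of mice at 8 weeks of age. One genotype was Prx1 Cre; Ai9/+, called control here, and the other carried the same alleles together with *Piezo1* fl/fl. Prx1-Cre drives recombination in limb mesenchyme, and Ai9 is a reporter that turns red fluorescent after recombination. Bones were digested 3 times, cells of the first digestion were not kept, red cells were lysed, and Prx1-positive cells were sorted and thawed before capture on the BD Rhapsody whole-transcriptome system. The number and sex of the mice in a library, and the part of *Piezo1* between the loxP sites, are not given in the sources used here. Each genotype had 1 library, so there were no replicates, no difference was tested, and all intervals are 95% intervals for counting error only.

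Counts were of unique molecular identifiers (UMIs), which mark single captured mRNA molecules near their 3′ end. The control library held 28030299 UMIs over 6118 barcodes, and the *Piezo1* fl/fl library 32337308 over 7469. Median depths were 3633.5 and 3327 UMIs per barcode, and 50 barcode sequences occurred in both libraries. After filtering, 4418 control and 5084 *Piezo1* fl/fl cells were kept. Within each library, clusters were built without any collagen gene and named from markers that include no collagen, and each name carries "-like" because the study's own assignment was not used here. A level is given in CPM, the UMIs of a gene per 1000000 UMIs of all cells of the type. Because UMIs mark the ends of transcripts and do not grow in number with transcript length, levels of different genes were compared without division by length.

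The skeletal stem and progenitor cell (SSPC) classes keep the names of the study, which reports *Angptl7* as specific to SSPC-1. The study also reports *Angptl7*-expressing cells in tendon. Here *Angptl7* was among the 10 leading genes of the tendon-like cluster of each library, and of neither SSPC-1-like cluster. A place among the leading genes is not a level, and *Angptl7* levels were not compared here. The SSPC-1-like class is therefore not equated with SSPC-1 of the study. SSPC-1-like cells numbered 801 from control and 1040 from *Piezo1* fl/fl mice, and SSPC-2-like cells 741 and 396. All 7 SSPC-1 markers and all 8 SSPC-2 markers were detected in both libraries, with *Egfl6* and *Tnn* at the head of the control clusters. Fibroblast-like cells numbered 1632 and 1363, in 2 clusters of each library called *Pi16*-led and *Ccl11*-led here, with that gene among the 10 leading genes though not always first. Tendon-like cells (*Kera*, *Tnmd*), lining-like cells (*Prg4*, *Htra4*), pericyte-like cells (*Myh11*, *Acta2*), endothelial-like cells (*Pecam1*) and blood cell-like cells were also found in both. A mature osteoblast-like cluster (*Dmp1*, *Bglap*) of 60 cells and a perineurial-like cluster (*Slc2a1*, *Cldn1*) of 32 cells were found only in the control library, and a chondrocyte-like cluster (*Hapln1*, *Acan*) of 27 cells only in the *Piezo1* fl/fl library. Of the chondrocyte-like cells 8 had UMIs of at least 4 of the 8 chondrocyte markers, so most cells of this class had fewer of them. These 8 cells nevertheless held 1133 of the 1741 *Col2a1* UMIs of the class. Where types were set cell by cell, both libraries had cells of each of these types, with 55 and 55 mature osteoblast-like, 53 and 23 perineurial-like and 29 and 42 chondrocyte-like cells. A *Cfd*-led cluster of 310 cells and a *Fmo2*-led cluster of 233 cells of the *Piezo1* fl/fl library had fibroblast as their best class but were left unnamed, because their leading genes held markers of another class. The *Piezo1* fl/fl SSPC-1-like cluster had a higher mean log2 ratio for tendon markers (4.17) than for SSPC-1 markers (3.56), and was named from the SSPC-1 markers *Fgf18* and *Cdkn1c* among its leading genes.

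*Piezo1*, which codes for a mechanically gated cation channel, had 132 UMIs or 5.18 CPM (4.33 to 6.14) over the retained control cells and 69 UMIs or 2.41 CPM (1.88 to 3.06) over the retained *Piezo1* fl/fl cells. A UMI was seen in 2.78% of control and 1.28% of *Piezo1* fl/fl cells. In SSPC-2-like cells the level was 6.26 CPM (4.31 to 8.79) in the control and 1.55 CPM (0.422 to 3.97) in the *Piezo1* fl/fl library. Endothelial-like cells had 28.1 CPM (16.7 to 44.4) and 17.4 CPM (8.35 to 32.0). Since 3′ tags can lie outside the floxed exons, these values do not check the deletion.

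Fibrillar collagens are triple-helical proteins that assemble outside the cell into the banded fibrils that give bone, tendon and skin their strength. Type I, made from the products of *Col1a1* and *Col1a2*, is the main collagen of bone and tendon, and type III from *Col3a1* is abundant in loose and elastic connective tissue. Types V and XI are minor components inside fibrils that limit their width and help start their assembly, and type II is the main collagen of cartilage.

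The 9 genes together took up 24.7% of all UMIs in the mature osteoblast-like cluster, which was a separate cluster in the control library alone. Their share in SSPC-2-like cells was 20.7% for control mice and 19.2% for *Piezo1* fl/fl mice, and in the *Piezo1* fl/fl chondrocyte-like cells, most of which had under 4 of the chondrocyte markers, it was 16.2%. Tendon-like cells gave 11.8% and 10.3%, SSPC-1-like cells 8.44% and 7.93%, and fibroblast-like cells 6.46% and 6.71%. The osteogenic clusters thus carried the highest shares of each library, and the order from SSPC-2-like through tendon-like and SSPC-1-like to fibroblast-like was the same in both libraries. The share was 1.82% and 3.25% in lining-like cells, and under 1% in perineurial-like, endothelial-like, pericyte-like and blood cell-like cells.

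*Col1a1*, which codes for the α1 chain of type I collagen, was the most abundant of all genes in the mature osteoblast-like, tendon-like, chondrocyte-like and both SSPC-like classes wherever they were found. Its level was 136524 (135547 to 137506) CPM in mature osteoblast-like cells. SSPC-2-like cells had 93953 (93691 to 94215) CPM in the control and 89253 (88889 to 89618) CPM in the *Piezo1* fl/fl library. The osteogenic clusters thus lay above the other types of their library. Tendon-like cells had 56298 (55883 to 56716) and 40239 (40016 to 40462) CPM, and SSPC-1-like cells 40135 (39953 to 40317) and 36227 (36058 to 36396) CPM. In fibroblast-like cells the level was 21436 (21342 to 21531) and 20359 (20262 to 20457) CPM. The *Pi16*-led cluster was below the *Ccl11*-led cluster in the control, at 19535 and 23975 CPM, and above it in the *Piezo1* fl/fl library, at 22170.5 and 18058 CPM. The chondrocyte-like cells had 80841 (79722 to 81971) CPM, but the 9 cells of the library with UMIs of at least 4 chondrocyte markers, 8 of them in this class, held 1532 *Col1a1* UMIs, or 20698 (19675 to 21761) CPM, so most of the 19922 *Col1a1* UMIs of the class came from cells with fewer of the markers. The *Fmo2*-led and *Cfd*-led clusters had 47465 and 27489.5 CPM. Lining-like cells were lower, with 8001 (7749 to 8259) and 12556 (12341 to 12774) CPM. *Col1a1* stood at 3506 and 2003 CPM in blood cell-like, 2774 CPM in perineurial-like, 1953 and 1528 CPM in endothelial-like and 1496 and 1056 CPM in pericyte-like cells. No neighbours in the order of *Col1a1* levels had a ratio whose interval held 1.

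*Col1a2* codes for the α2 chain of type I collagen and followed the order of *Col1a1* with few exceptions. Its level was 89519 (88728 to 90315) CPM in mature osteoblast-like cells, and 63824 (63608 to 64039.6) and 61051 (60749.8 to 61353) CPM in SSPC-2-like cells of the control and *Piezo1* fl/fl libraries. Tendon-like cells had 48255 and 32205 CPM, SSPC-1-like cells 30952 and 29910.5 CPM and fibroblast-like cells 17274 and 16738 CPM. Chondrocyte-like cells, at 60149.7 (59185 to 61126) CPM, did not differ from the SSPC-2-like cells of their library beyond counting error, while the 9 cells with at least 4 chondrocyte markers had 15875 (14980.1 to 16809) CPM. The *Fmo2*-led and *Cfd*-led clusters had 34078 and 23216 CPM, and lining-like cells 4012 (3834 to 4196) and 4257 (4132 to 4385) CPM. At the low end were perineurial-like cells with 3429 CPM, blood cell-like cells with 2425 and 1559 CPM, endothelial-like cells with 1478 and 1197 CPM and pericyte-like cells with 1456 and 1099.7 CPM. Endothelial-like and pericyte-like cells could not be ordered at this depth in either library. Type I collagen is usually a trimer of a pair of α1 chains and a single α2 chain, and the UMI ratio of *Col1a1* to *Col1a2* was 1.53 (1.51 to 1.54) in mature osteoblast-like cells, 1.47 (1.47 to 1.48) and 1.46 (1.45 to 1.47) in SSPC-2-like cells and 1.30 (1.29 to 1.31) and 1.21 (1.203 to 1.22) in SSPC-1-like cells. Fibroblast-like cells had 1.24 (1.23 to 1.25) and 1.22 (1.21 to 1.23), and tendon-like cells 1.17 (1.15 to 1.18) and 1.25 (1.24 to 1.26). Lining-like cells stood apart with more *Col1a1* per *Col1a2*, at 1.99 (1.89 to 2.11) and 2.95 (2.85 to 3.05). Perineurial-like cells had the lowest ratio, 0.809 (0.713 to 0.917), and pericyte-like cells had 1.03 (0.964 to 1.10) and 0.960 (0.898 to 1.03).

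*Col3a1*, the gene of type III collagen, had a different order. It was highest in SSPC-2-like cells, with 35891 (35729.6 to 36053) CPM in the control and 29826 (29616 to 30038) CPM in the *Piezo1* fl/fl library. The fibroblast-like level was second in the control, at 20707 (20614 to 20799.5) CPM, and stood at 25111 (25003 to 25219.5) CPM with *Piezo1* fl/fl, where *Col3a1* was the most abundant gene of these cells. The *Pi16*-led and *Ccl11*-led clusters were close to each other, at 20531 and 20942 CPM in the control and 25601 and 24488 CPM in the *Piezo1* fl/fl library. Mature osteoblast-like cells, which led for type I, had only 3935 (3770.4 to 4104) CPM. Chondrocyte-like cells had 2605 (2408 to 2815) CPM. SSPC-1-like cells had 9479.9 (9392 to 9569) and 9069.7 (8985 to 9155) CPM. Tendon-like cells were near SSPC-1-like cells in the control, at 8311 (8152 to 8473) CPM, and near fibroblast-like cells in the *Piezo1* fl/fl library, at 24681 (24507 to 24856) CPM. This difference between the tendon-like clusters was smaller with types set cell by cell, and the clusters also differed in fibroblast markers, as given below. Lining-like cells also differed between the libraries, with 4405 (4219 to 4598) and 12502 (12287 to 12719.6) CPM. The *Fmo2*-led and *Cfd*-led clusters had 27481 and 25381 CPM. Levels were 1841 and 1458 CPM in blood cell-like, 1627 CPM in perineurial-like, 1181 and 1017 CPM in pericyte-like and 1038 and 1003 CPM in endothelial-like cells. Neighbours whose ratio intervals held 1 were blood cell-like and perineurial-like cells in the control. In the *Piezo1* fl/fl library they were the *Pi16*-led and *Cfd*-led clusters, tendon-like cells and the *Ccl11*-led cluster, and pericyte-like and endothelial-like cells.

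The balance of type III to type I transcripts also set the cell types apart. Per *Col1a1* UMI there were 0.0288 (0.0276 to 0.0301) *Col3a1* UMIs in mature osteoblast-like and 0.0322 (0.0297 to 0.0349) in chondrocyte-like cells, but the 9 *Piezo1* fl/fl cells with at least 4 chondrocyte markers held 235 *Col3a1* beside 1532 *Col1a1* UMIs. SSPC-1-like cells had 0.236 (0.234 to 0.239) and 0.2504 (0.248 to 0.253), SSPC-2-like cells 0.382 (0.380 to 0.384) and 0.334 (0.331 to 0.337), and fibroblast-like cells 0.966 (0.960 to 0.972) and 1.23 (1.23 to 1.24). Fibroblast-like cells thus held about as many *Col3a1* as *Col1a1* molecules, or more. In tendon-like cells the ratio was 0.148 (0.145 to 0.151) in the control and 0.613 (0.608 to 0.619) in the *Piezo1* fl/fl library, and in lining-like cells it was 0.551 (0.522 to 0.581) and 0.996 (0.972 to 1.02). Blood cell-like cells had 0.525 (0.504 to 0.547) and 0.728 (0.698 to 0.758), and pericyte-like cells 0.789 (0.738 to 0.844) and 0.964 (0.9004 to 1.03). After every cell was thinned to 2500 UMIs, more *Col3a1* than *Col1a1* UMIs were found in 53.4% of control and 71.6% of *Piezo1* fl/fl fibroblast-like cells. SSPC-1-like cells gave 1.52% and 1.58%, SSPC-2-like cells 1.83% and 1.34%, and tendon-like cells 2.67% and 32.7%. It was 0 of 56 mature osteoblast-like cells, with an exact upper bound of 6.38%. In some types *Col1a1* and *Col1a2* levels went together from cell to cell, with Pearson's r between thinned log levels of 0.881 and 0.893 in SSPC-2-like and 0.889 and 0.866 in fibroblast-like cells. In others the same r was lower, at 0.408 and 0.364 in pericyte-like, 0.554 and 0.346 in endothelial-like and 0.342 in perineurial-like cells. Levels of both genes were far lower in these types, and counting error alone lowers r at low counts. These r values therefore cannot be compared between the types. For *Col1a1* with *Col3a1*, r was 0.739 and 0.737 in fibroblast-like, 0.474 and 0.0916 in SSPC-2-like and -0.350 in mature osteoblast-like cells. Cells of a type share their library, so these values are descriptions without a p.

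**Figure D1:**
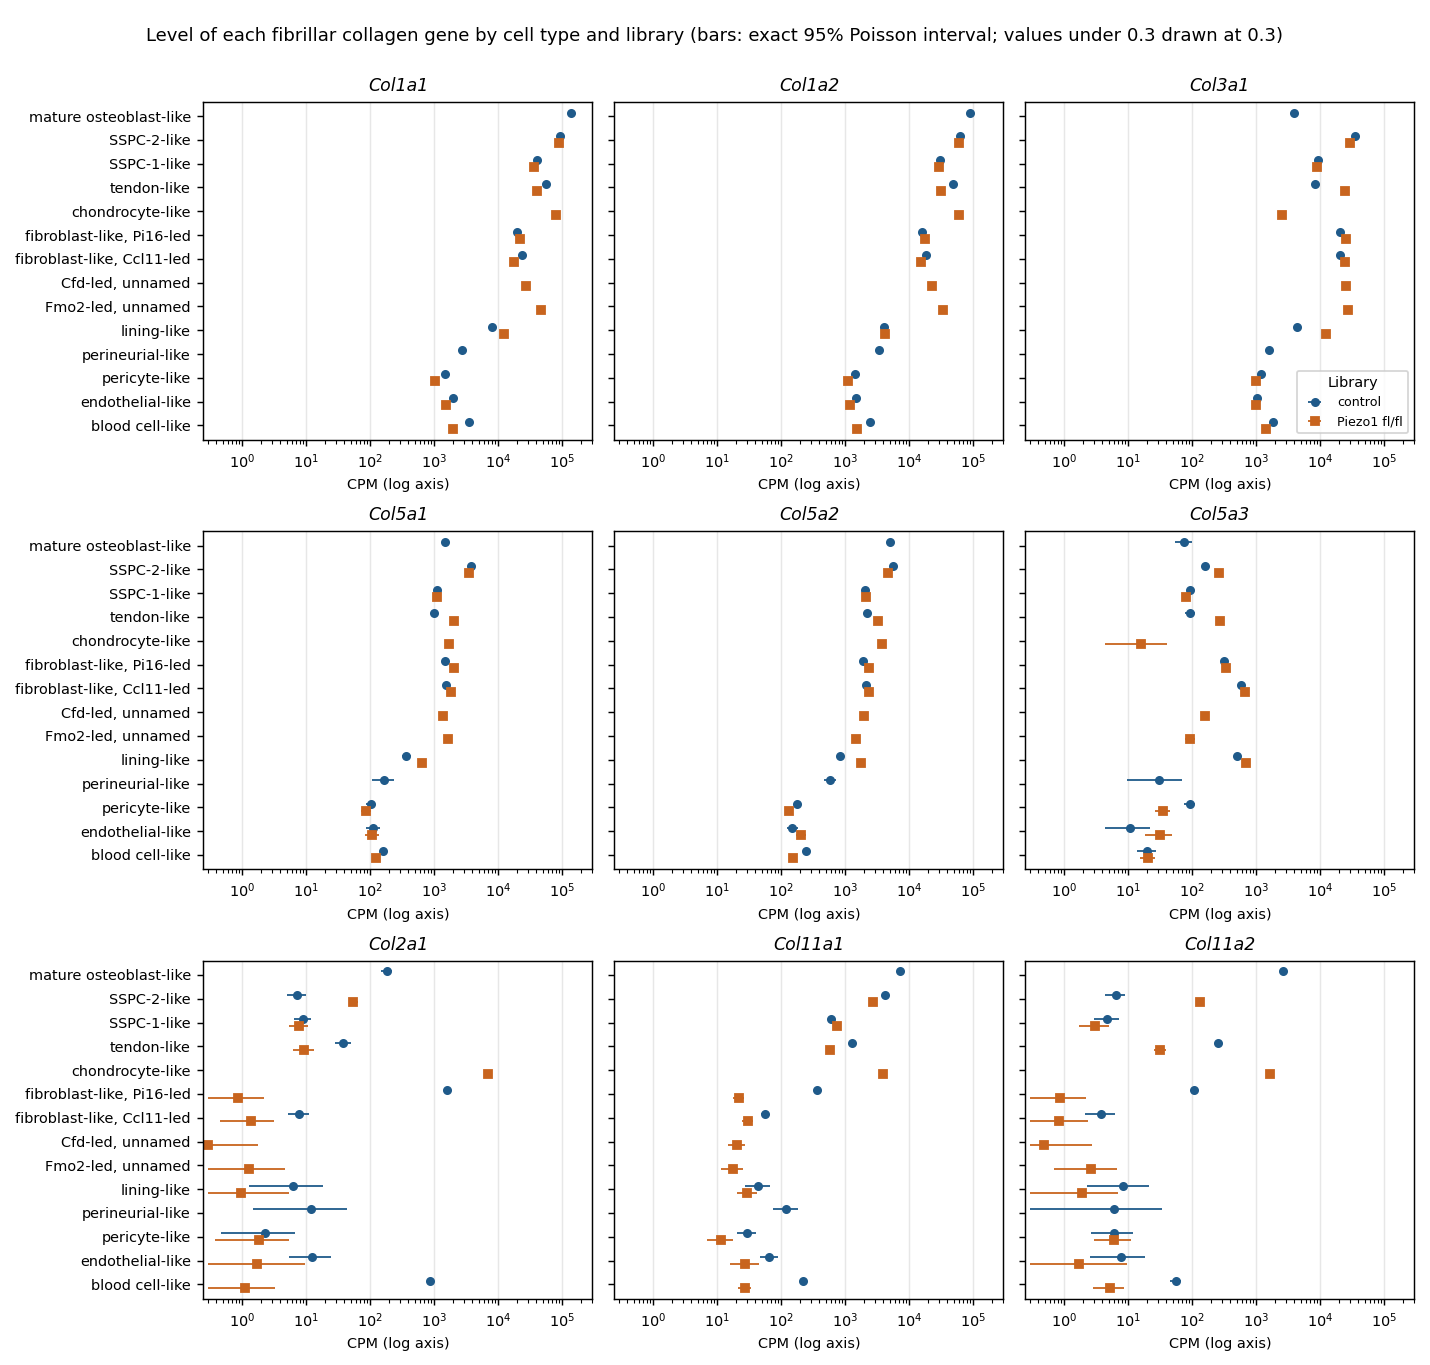
Level of each fibrillar collagen gene (CPM, log axis) in every cell type, with control as circles and *Piezo1* fl/fl as squares; bars are exact 95% Poisson intervals, and values under 0.3 CPM are drawn at 0.3. Type I genes peak in mature osteoblast-like and SSPC-2-like cells, *Col3a1* in SSPC-2-like and fibroblast-like cells, and *Col5a3* in lining-like and *Ccl11*-led fibroblast-like cells.

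*Col5a1* and *Col5a2* code for the chains of the common form of type V collagen. *Col5a1* was highest in SSPC-2-like cells, with 3777 (3724 to 3829.5) CPM in the control and 3476 (3405 to 3549) CPM in the *Piezo1* fl/fl library. Fibroblast-like cells had 1502 (1477 to 1527) and 1978 (1948 to 2009) CPM, SSPC-1-like cells 1116 (1086 to 1147) and 1134 (1104 to 1164) CPM, and tendon-like cells 1016 (960.5 to 1073) and 2037 (1987 to 2088) CPM. Mature osteoblast-like cells, at 1488 (1388 to 1594) CPM, lay with the fibroblast-like clusters and not with SSPC-2-like cells. Chondrocyte-like cells had 1733 (1572 to 1905) CPM, the *Fmo2*-led cluster 1677 CPM and the *Cfd*-led cluster 1366 CPM. Lining-like cells had 372 (319 to 431) and 639.7 (592 to 690.5) CPM. From 164 CPM in perineurial-like cells down, the levels were 159 and 123 CPM in blood cell-like, 112 and 108 CPM in endothelial-like and 103 and 86.6 CPM in pericyte-like cells. In the control, the *Ccl11*-led, *Pi16*-led and mature osteoblast-like levels of *Col5a1* could not be ordered beyond counting error, and in the *Piezo1* fl/fl library neither could the *Pi16*-led and tendon-like levels, nor the *Ccl11*-led, chondrocyte-like and *Fmo2*-led levels.

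*Col5a2* was also highest in SSPC-2-like cells, with 5552 (5489 to 5616) and 4796 (4712 to 4881) CPM, but here mature osteoblast-like cells were close behind, with 5118 (4930.2 to 5311) CPM. Chondrocyte-like cells had 3769.8 (3531 to 4020.2) CPM. Tendon-like cells had 2185 (2104 to 2269) and 3285 (3222 to 3349.5) CPM, SSPC-1-like cells 2027 (1986 to 2068) and 2164 (2123 to 2206) CPM, and fibroblast-like cells 2004 (1976 to 2033) and 2349.8 (2317 to 2383) CPM. These types formed a plateau for *Col5a2* in the control, where the tendon-like and *Ccl11*-led levels could not be told apart. The *Cfd*-led and *Fmo2*-led clusters had 2009 and 1478 CPM, lining-like cells 851 and 1772 CPM and perineurial-like cells 589 CPM. Blood cell-like cells had 249.7 and 155 CPM, endothelial-like cells 151 and 207 CPM and pericyte-like cells 181 and 136 CPM. The ratio of *Col5a1* to *Col5a2* UMIs was 0.749 (0.733 to 0.766) and 0.842 (0.824 to 0.860) in fibroblast-like, 0.680 (0.668 to 0.693) and 0.725 (0.705 to 0.745) in SSPC-2-like and 0.551 (0.532 to 0.570) and 0.524 (0.507 to 0.541) in SSPC-1-like cells. It was lowest, with overlapping intervals, in mature osteoblast-like cells at 0.291 (0.269 to 0.314) and perineurial-like cells at 0.278 (0.175 to 0.430), and highest in the *Fmo2*-led cluster at 1.13 (1.07 to 1.202).

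*Col5a3* codes for a further type V chain that occurs in fewer tissues, and its order was unlike that of the other members. The *Ccl11*-led fibroblast-like cluster had 586 (562 to 610.0) CPM in the control and 666 (639 to 693) CPM in the *Piezo1* fl/fl library, and lining-like cells 515 (452 to 584) and 692 (642 to 745) CPM. These pairs could not be ordered beyond counting error in either library. The *Pi16*-led cluster had 317 (302 to 332) and 345 (328 to 363) CPM, SSPC-2-like cells 160.0 (149 to 171) and 263 (244 to 284) CPM, and SSPC-1-like cells 94.7 (86.0 to 104) and 80.3 (72.5 to 88.6) CPM. Tendon-like cells had 93.7 (77.5 to 112) and 271 (253 to 289.9) CPM, and pericyte-like cells 92.2 (76.5 to 110.3) and 34.8 (26.3 to 45.0) CPM. In the control, no neighbours in the order of *Col5a3* from SSPC-1-like cells down differed beyond counting error. In the *Piezo1* fl/fl library the tendon-like and SSPC-2-like levels did not, nor the *Fmo2*-led and SSPC-1-like levels, nor any neighbours from pericyte-like cells down. Mature osteoblast-like cells had 74.9 (53.7 to 102) CPM, the *Cfd*-led and *Fmo2*-led clusters 160.1 and 94.1 CPM, and chondrocyte-like cells 16.2 (4.42 to 41.6) CPM from 4 UMIs. Perineurial-like cells had 30.3 (9.85 to 70.8) CPM, endothelial-like cells 10.9 and 31.4 CPM and blood cell-like cells 19.9 and 20.4 CPM. Per *Col5a1* UMI there were 1.38 (1.14 to 1.69) and 1.08 (0.972 to 1.204) *Col5a3* UMIs in lining-like cells, against 0.288 (0.278 to 0.298) and 0.246 (0.237 to 0.255) in fibroblast-like cells and 0.0424 (0.0395 to 0.0454) and 0.0757 (0.0700 to 0.0819) in SSPC-2-like cells. Pericyte-like cells had 0.896 (0.694 to 1.15) and 0.401 (0.290 to 0.549), above the fibroblast-like cells of the same library. The lining-like, pericyte-like and fibroblast-like cells therefore held more *Col5a3* relative to *Col5a1* than the osteogenic clusters did.

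*Col2a1*, the gene of cartilage type II collagen, was concentrated in very few cells. In the control, 16 cells had UMIs of at least 4 of the 8 chondrocyte markers, a limit set after the data were seen, and these held 10027 *Col2a1* UMIs, 96.8% of those in the retained cells. Clustering had placed 13 of them in the *Pi16*-led fibroblast-like cluster, 2 in the SSPC-2-like cluster and 1 in a *Top2a*-led cluster counted as blood cell-like. Of these cells 14 had a *Col2a1* UMI. They also had UMIs of the tendon list (*Tnmd*, *Scx*, *Mkx*, *Kera*, *Fmod* and *Chad*), with a median of 123.5 beside 213 of the chondrocyte list, 24.5 of the SSPC-2 list and 1 of the fibroblast list. These are sums over each list and were not split by gene, so they do not show which tendon list genes the cells held. The 106 control cells with 3 markers, just under the limit, had 9 *Col2a1* UMIs in all. In the *Piezo1* fl/fl library, 9 cells passed the limit and held 1133 *Col2a1* UMIs, 57.5% of the total, and the 57 cells with 3 markers held 444. Of the 9 cells, 8 belonged to the chondrocyte-like cluster and 1 to the SSPC-1-like cluster, and their median was 97 UMIs of the tendon list, more than the 40 of the chondrocyte list. Chondrocyte-like cells had 7065 (6737 to 7405) CPM, and 3459 (3189 to 3745) CPM without the 8 that passed the limit.

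Because of these cells, *Col2a1* read 1587 (1553 to 1621) CPM in the control *Pi16*-led cluster and 873 (831 to 915) CPM in blood cell-like cells, but 7.41 (5.24 to 10.2) and 11.1 (6.88 to 17.0) CPM without them. Mature osteoblast-like cells had 183 (149 to 222) CPM and control tendon-like cells 38.4 (28.3 to 51.0) CPM, with none of the marker-rich cells among them. SSPC-2-like cells had 7.21 (5.10 to 9.89) CPM in the control and 55.0 (46.3 to 64.8) CPM in the *Piezo1* fl/fl library, where 142 UMIs came from 14 of 396 cells. SSPC-1-like cells had 9.04 (6.51 to 12.2) and 7.80 (5.52 to 10.7) CPM, and the *Ccl11*-led cluster 7.80 and 1.38 CPM. *Piezo1* fl/fl tendon-like cells had 9.28 CPM. In the remaining types the level rested on 8 or fewer UMIs: 12.5 and 1.74 CPM in endothelial-like, 12.1 CPM in perineurial-like, 6.31 and 0.969 CPM in lining-like, 2.31 and 1.83 CPM in pericyte-like and 1.11 CPM in *Piezo1* fl/fl blood cell-like cells. The *Piezo1* fl/fl *Pi16*-led and *Fmo2*-led clusters had 0.868 and 1.31 CPM, and the *Cfd*-led cluster had 0 UMIs, for which a limit of 3 counts allows up to 1.46 CPM. In the control, no neighbours in the order of *Col2a1* from endothelial-like cells down differed beyond counting error. The same held in the *Piezo1* fl/fl library from pericyte-like cells down and for tendon-like over SSPC-1-like cells, while SSPC-1-like over pericyte-like cells had a ratio of 4.26 (1.35 to 21.6).

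Type XI collagen, a partner of type II in cartilage fibrils, has chains coded by *Col11a1* and *Col11a2*. *Col11a1* was abundant in mature osteoblast-like cells, with 7188 (6966 to 7417) CPM, and in SSPC-2-like cells, with 4281 (4225 to 4337) and 2719 (2656 to 2784) CPM. Chondrocyte-like cells had 3916 (3673 to 4171) CPM, and the control cells rich in chondrocyte markers 9094 (8697 to 9504) CPM. Tendon-like cells had 1302 (1239.8 to 1367) and 581 (554 to 608) CPM, and SSPC-1-like cells 601 (579 to 624) and 753 (729 to 778) CPM. Between the clusters, tendon-like cells thus lay above SSPC-1-like cells in the control and below them in the *Piezo1* fl/fl library. With types set cell by cell, tendon-like cells lay above SSPC-1-like cells in the *Piezo1* fl/fl library too, as given below. Fibroblast-like cells had 231 (222 to 241) and 25.7 (22.4 to 29.4) CPM, and the control value was 53.7 (49.1 to 58.7) CPM without the marker-rich cells. The *Pi16*-led cluster had 362 and 22.1 CPM and the *Ccl11*-led cluster 56.9 and 30.3 CPM. Blood cell-like cells had 224 and 27.1 CPM, and the control value was 116 CPM without the single marker-rich cell. Perineurial-like cells had 121 CPM, endothelial-like cells 65.6 and 27.9 CPM, lining-like cells 44.1 and 30.05 CPM, pericyte-like cells 29.2 and 11.6 CPM, and the *Cfd*-led and *Fmo2*-led clusters 20.5 and 17.7 CPM. In the *Piezo1* fl/fl library, no neighbours among the *Col11a1* levels of the types below tendon-like cells differed beyond counting error.

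*Col11a2* was narrower than *Col11a1*. Mature osteoblast-like cells had 2651 (2517 to 2791) CPM and chondrocyte-like cells 1692 (1534 to 1863) CPM. Tendon-like cells had 253 (226 to 283) CPM in the control and 32.0 (26.0 to 38.9) CPM in the *Piezo1* fl/fl library. In SSPC-2-like cells *Col11a2* was at 6.45 (4.46 to 9.01) CPM in the control, from 34 UMIs, and at 132 (118 to 147) CPM in the *Piezo1* fl/fl library, where 7.83% of cells had a UMI. SSPC-1-like cells had 4.73 (2.97 to 7.17) and 3.08 (1.72 to 5.08) CPM. The control *Pi16*-led and blood cell-like levels of 109 and 56.0 CPM became 5.46 and 7.93 CPM without the marker-rich cells, and the *Piezo1* fl/fl levels were 0.868 and 5.20 CPM. The *Ccl11*-led cluster had 3.78 and 0.827 CPM, lining-like cells 8.41 and 1.94 CPM, endothelial-like cells 7.80 and 1.74 CPM, pericyte-like cells 6.15 and 6.10 CPM and perineurial-like cells 6.07 CPM. The *Fmo2*-led and *Cfd*-led clusters had 2.62 and 0.488 CPM. Below tendon-like cells in the *Piezo1* fl/fl library, and below blood cell-like cells in the control, neighbours in the order of *Col11a2* did not differ beyond counting error. The UMI ratio of *Col11a1* to *Col11a2* was 2.71 (2.55 to 2.88) in mature osteoblast-like and 2.31 (2.06 to 2.60) in chondrocyte-like cells, but 664 (475 to 959) in control and 20.6 (18.5 to 23.0) in *Piezo1* fl/fl SSPC-2-like cells. SSPC-1-like cells also had high ratios, 127 (83.7 to 203) in the control and 245 (148 to 437) in the *Piezo1* fl/fl library. The control SSPC-2-like cells therefore had ample *Col11a1* with hardly any *Col11a2*. However, mature osteoblast-like cells formed a separate cluster in the control alone. With them counted as SSPC-2-like, *Col11a2* was no longer higher in the *Piezo1* fl/fl library, as given below.

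Free RNA released by broken cells gives UMIs in cells that do not make a gene, and blood cells should lack these collagens. In cells thinned to 2500 UMIs, *Col1a1* had a UMI in 95.3% (92.4 to 97.4%) of control and 80.0% (76.0 to 83.7%) of *Piezo1* fl/fl blood cell-like cells, at median depths before thinning of 3767 and 4015 UMIs. Every thinned SSPC-1-like and SSPC-2-like cell of both libraries had one, at median depths of 5216 and 5970 UMIs in the control and 3940.5 and 5400 UMIs in the *Piezo1* fl/fl library. Shares of cells with a UMI therefore say little about *Col1a1*, *Col1a2* and *Col3a1*, whose UMIs were also seen in many blood cell-like cells. For *Col5a3*, a UMI was seen in 59.3% and 64.3% of thinned *Ccl11*-led and 49.1% and 70.3% of lining-like cells, against 3.42% and 4.54% of blood cell-like cells. *Col11a1* had a UMI in 95.8% and 94.1% of SSPC-2-like and 62.8% and 71.1% of SSPC-1-like cells, against 15.2% and 5.22% of blood cell-like cells. *Col11a2* was seen in 64.3% of mature osteoblast-like and 88.5% of chondrocyte-like cells, but in 2.25% and 4.56% of SSPC-2-like cells beside 2.17% and 0.680% in blood cell-like cells, so its control SSPC-2-like share was close to the blood cell-like one. In pericyte-like and endothelial-like cells the levels of *Col1a1*, *Col1a2* and *Col3a1* were below those of the blood cell-like cells of the same library. The same held for *Col11a1* in pericyte-like cells of both libraries and in control endothelial-like cells. The part of free RNA in these levels was not tested, and the control blood cell-like class includes the *Top2a*-led cluster of 23 cells, which has no blood cell marker among its 10 leading genes and holds the marker-rich cell. Pericyte-like cells had more *Col5a3* than blood cell-like cells, with a log2 ratio of 2.21 (1.68 to 2.78) in the control and 0.77 (0.21 to 1.33) in the *Piezo1* fl/fl library, and a thinned share of 11.3% and 5.86%.

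The progenitor classes were compared within each library. In the control, 6 of the 9 genes were at least 2-fold higher in SSPC-2-like than in SSPC-1-like cells and none was 2-fold lower, where 5.04% of 9658 genes with at least 50 UMIs over both types were that much higher and 13.0% that much lower. The median log2 ratio was 1.23 over the members and -0.23 over all these genes. The log2 ratio was 1.23 (1.22 to 1.23) for *Col1a1*, 1.04 (1.04 to 1.05) for *Col1a2* and 1.92 (1.91 to 1.94) for *Col3a1*. It was 1.76 (1.71 to 1.80) for *Col5a1*, 1.45 (1.42 to 1.49) for *Col5a2* and 2.83 (2.77 to 2.89) for *Col11a1*, the largest of the 9. *Col5a3* had 0.76 (0.59 to 0.93), and the intervals of *Col2a1*, -0.33 (-0.999 to 0.34), and *Col11a2*, 0.45 (-0.37 to 1.29), held 0. With tendon-like cells counted as SSPC-1-like, *Col1a2* came to 0.88, *Col2a1* to -1.08 and *Col11a2* to -3.15. With the blood cell-like level subtracted, *Col11a1* came to 3.42, where the level taken off, 224 CPM, includes the marker-rich cell and was 116 CPM without it. With types set cell by cell, *Col2a1* came to 0.65 and *Col11a2* to 1.11. Where the mature osteoblast-like cells were merged with SSPC-2-like cells, *Col11a2* came to 5.75 and *Col2a1* to 1.39. At resolution 0.2, where the mature osteoblast-like cells were not a separate cluster, *Col11a2* came to 6.20 and *Col2a1* to 7.30. The SSPC-2-like class then had 820 cells, more than the 801 of the merger. Whether cells rich in chondrocyte markers had joined it was not tested.

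In the *Piezo1* fl/fl library all 9 members were at least 2-fold higher in SSPC-2-like cells, beside 4.96% of 8985 genes higher and 11.6% lower, with medians of 1.71 and -0.18. The type I and type III genes had log2 ratios of 1.30 (1.29 to 1.31) for *Col1a1*, 1.03 (1.02 to 1.04) for *Col1a2* and 1.72 (1.70 to 1.73) for *Col3a1*. The type V genes had 1.62 (1.57 to 1.66) for *Col5a1*, 1.15 (1.11 to 1.19) for *Col5a2* and 1.71 (1.53 to 1.90) for *Col5a3*. *Col11a1* had 1.85 (1.79 to 1.91). *Col2a1* had 2.82 (2.29 to 3.37) and *Col11a2* 5.42 (4.68 to 6.28), and these rested on few cells. With types set cell by cell, *Col2a1* came to -0.31 and *Col11a2* to 1.02. With tendon-like cells counted as SSPC-1-like, *Col1a2*, *Col3a1*, *Col5a2* and *Col5a3* came to 0.99, 0.98, 0.88 and 0.77, under 2-fold, and *Col11a2* to 3.20. *Col1a2* was also under 2-fold with 500 to 6000 genes per cell, at 0.95, and with collagen genes among the clustering features, at 0.94. *Col11a2* was lower with thinned cells, at 3.79, with a mean over cells, at 4.47, and under the same filter and feature changes, at 4.59 and 4.55. The SSPC-2-like cluster of this library had *Bglap* and *Ibsp* among its leading genes beside *Tnn*, and its mature osteoblast list had 7 of 7 genes with UMIs and 2718 CPM in sum, most of it *Bglap2* at 1471 CPM. In the control SSPC-2-like cluster 6 of 7 had UMIs, with 1533 CPM in sum, *Bglap2* at 912 CPM and *Mepe* at 0. The part of such cells in the ratios was not tested.

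From SSPC-2-like to mature osteoblast-like cells of the control, the fibrillar genes parted ways. Of the 9, 2 were at least 2-fold higher and 3 at least 2-fold lower, beside 19.9% of 7986 genes past 2-fold in either direction and an all-gene median of -0.16. *Col11a2* had a log2 ratio of 8.68 (8.19 to 9.22) and *Col2a1* of 4.66 (4.11 to 5.24). *Col3a1* had -3.19 (-3.25 to -3.13), *Col5a1* -1.34 (-1.45 to -1.24) and *Col5a3* -1.10 (-1.59 to -0.64). Type I genes were moderately higher in mature osteoblast-like cells, with 0.54 (0.53 to 0.55) for *Col1a1* and 0.49 (0.47 to 0.50) for *Col1a2*. *Col11a1* had 0.75 (0.70 to 0.80) and *Col5a2* -0.12 (-0.17 to -0.06). At resolution 0.8 the cluster with osteoblast markers grew to 234 cells, and *Col3a1* came to -0.61, *Col5a1* to -0.98, *Col5a3* to -0.54, *Col1a1* to -0.07, *Col1a2* to -0.07, *Col2a1* to 3.47, *Col11a2* to 7.48 and *Col11a1* to -0.20. With the blood cell-like level subtracted, *Col3a1* came to -4.02. *Col2a1* was at 10.49 with 500 to 6000 genes per cell and at 3.86 with types set cell by cell, and *Col11a2* at 7.73 with thinned cells and 8.04 with a mean over cells. With 500 to 6000 genes per cell the mature osteoblast-like class had 103 cells in place of 60. Whether cells rich in chondrocyte markers had joined it was not tested. For *Col5a3*, at 41 UMIs in mature osteoblast-like cells, the ratio fell short of 2-fold with cells thinned, at -0.75, with a mean over cells, at -0.93, and under 10% mitochondrial UMIs, at -0.98.

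Tendon-like cells were set beside SSPC-1-like cells. In the control 3 of the 9 members were at least 2-fold higher and none lower, beside 14.1% of 8586 genes past 2-fold in either direction and an all-gene median of -0.19. These were *Col11a2* with 5.74 (5.12 to 6.44), *Col2a1* with 2.09 (1.46 to 2.72) and *Col11a1* with 1.11 (1.03 to 1.204). Type I was modestly higher, at 0.49 (0.48 to 0.50) for *Col1a1* and 0.64 (0.63 to 0.65) for *Col1a2*. In the *Piezo1* fl/fl library 3 members were also past 2-fold and higher, beside 11.2% of 9084 genes in either direction and a median of -0.14, and they were *Col11a2* with 3.38 (2.59 to 4.27), *Col5a3* with 1.76 (1.58 to 1.93) and *Col3a1* with 1.44 (1.43 to 1.46). With types set cell by cell, *Col5a3* and *Col3a1* came to 0.22 and 0.21, *Col11a1*, at -0.38 between the clusters, came to 1.203, *Col2a1*, at 0.25, to 2.56, and *Col11a2* to 4.18. With 500 to 6000 genes per cell *Col2a1* was at 1.10, and with thinned cells *Col11a2* was at 2.55 in this library and 4.76 in the control. Between the fibroblast-like clusters of the control, 3 of 9 members were at least 2-fold lower in the *Ccl11*-led than in the *Pi16*-led cluster, beside 8.83% of 9616 genes in either direction. They were *Col2a1*, *Col11a1* and *Col11a2*, the genes of the marker-rich cells, and without those cells none was past 2-fold, at 7.80, 56.9 and 3.78 CPM in the *Ccl11*-led against 7.41, 51.3 and 5.46 CPM in the *Pi16*-led cluster. In the *Piezo1* fl/fl library no member of the 7 with enough UMIs was past 2-fold, beside 8.27% of 9144 genes. *Col5a3* was higher in the *Ccl11*-led cluster of both libraries, with 0.89 (0.80 to 0.98) in the control and 0.95 (0.86 to 1.04) in the *Piezo1* fl/fl library.

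**Figure D2:**
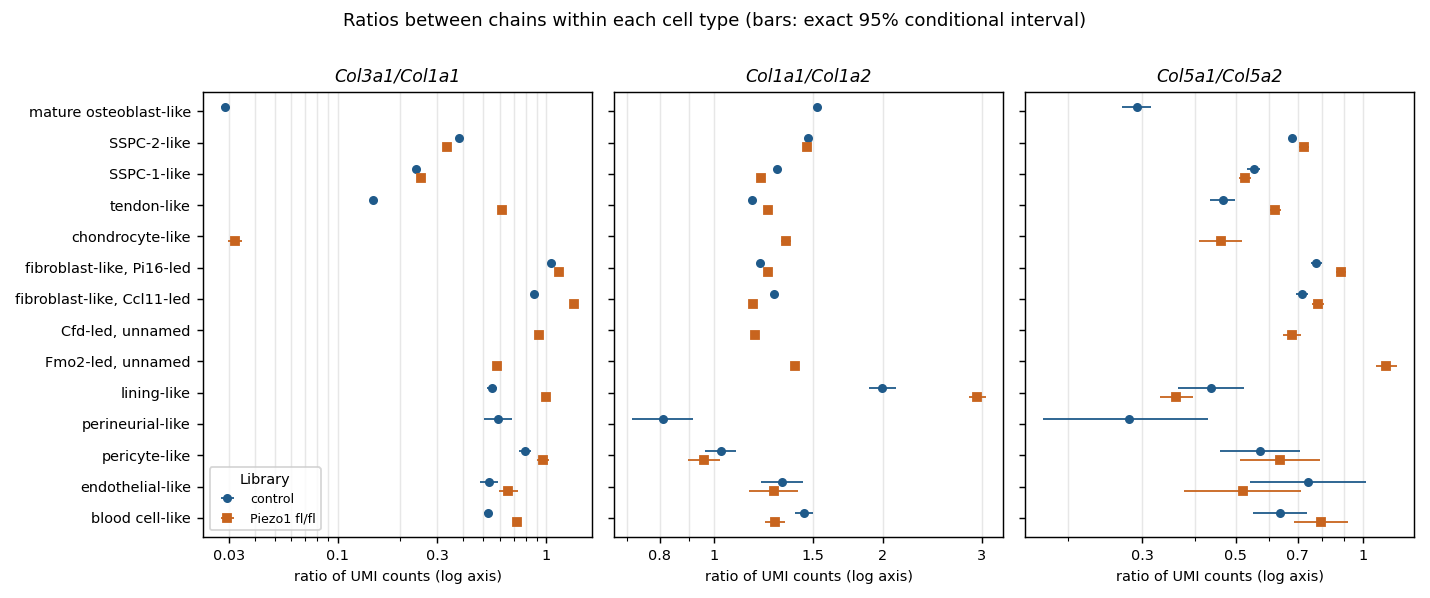
Ratios of UMI counts between fibrillar chains (log axes) in each cell type, with control as circles and *Piezo1* fl/fl as squares; bars are exact 95% conditional intervals. *Col3a1* per *Col1a1* runs from 0.0288 in mature osteoblast-like cells to 1.36 in the *Piezo1* fl/fl *Ccl11*-led fibroblast-like cluster, and *Col1a1* per *Col1a2* is highest in lining-like cells.

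The contrast of the libraries bears on what loss of *Piezo1* in Prx1-lineage cells does to the periosteum, but with 1 library per genotype the genotype cannot be told apart from the library. In SSPC-1-like cells none of the 8 members with enough UMIs was past 2-fold, beside 4.23% of 9668 genes. Their log2 ratios of *Piezo1* fl/fl over control ran from -0.24 (-0.44 to -0.04) for *Col5a3* to 0.32 (0.25 to 0.40) for *Col11a1*, with -0.15 (-0.16 to -0.14) for *Col1a1* and -0.06 (-0.08 to -0.04) for *Col3a1*. With tendon-like cells counted as SSPC-1-like, *Col3a1* came to 0.72, *Col5a3* to 0.71 and *Col11a1* to -0.13. In SSPC-2-like cells type I differed little between the libraries, at -0.07 (-0.08 to -0.07) for *Col1a1* and -0.06 (-0.07 to -0.06) for *Col1a2*. *Col3a1* had -0.27 (-0.28 to -0.25), *Col5a1* -0.12 (-0.16 to -0.08), *Col5a2* -0.21 (-0.24 to -0.18), *Col11a1* -0.65 (-0.69 to -0.62) and *Col5a3* 0.72 (0.57 to 0.87). The 2 members past 2-fold in SSPC-2-like cells, beside 3.63% of 8734 genes, were *Col11a2* at 4.36 (3.85 to 4.91) and *Col2a1* at 2.93 (2.41 to 3.49). Both depended on the way cells were grouped. With the control mature osteoblast-like cells counted as SSPC-2-like, *Col11a2* came to -0.95 and *Col2a1* to 1.21. With types set cell by cell they came to -0.25 and -1.94, and at resolution 0.2 to -1.35 and -4.68. Thinned cells gave 2.76 and 2.17, and a mean over cells 3.35 and 2.25. *Col11a1* passed 2-fold at resolution 0.8, at -1.12.

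Fibroblast-like cells of the *Piezo1* fl/fl library had more *Col3a1*, *Col5a1* and *Col5a2*. The log2 ratio was 0.28 (0.27 to 0.29) for *Col3a1*, 0.40 (0.36 to 0.43) for *Col5a1*, 0.23 (0.20 to 0.26) for *Col5a2* and 0.17 (0.11 to 0.23) for *Col5a3*. Type I hardly differed, at -0.07 (-0.08 to -0.06) for *Col1a1* and -0.05 (-0.06 to -0.04) for *Col1a2*. With types set cell by cell, *Col1a1* came to 0.32, *Col1a2* to 0.29 and *Col5a3* to -0.15, so that neither type I nor *Col5a3* had a settled direction. For *Col3a1* and *Col5a1* the sign was the same in both clusters, at 0.32 and 0.48 in the *Pi16*-led and 0.23 and 0.29 in the *Ccl11*-led cluster. *Col1a1* differed in sign, at 0.18 in the *Pi16*-led and -0.41 in the *Ccl11*-led cluster. However, the *Ccl11*-led clusters were not alike in their leading genes. *Gdf10* and *Inmt* were among them in the control, but in the *Piezo1* fl/fl library led the unnamed *Fmo2*-led cluster. The *Fmo2*-led and *Cfd*-led clusters had 47465 and 27489.5 CPM of *Col1a1*, above the 20359 CPM of the fibroblast-like class, which leaves them out. No type I, type III or type V ratio given here passed 2-fold. The 3 members that did, beside 3.75% of 10641 genes, were *Col2a1* at -9.70 (-10.83 to -8.78), *Col11a2* at -6.23 (-7.55 to -5.18) and *Col11a1* at -3.17 (-3.38 to -2.96). Without the cells rich in chondrocyte markers, which lay in the control cluster alone, these ratios were -2.79, -2.47 and -1.06. Types set cell by cell gave -2.83, -2.34 and -0.73. The other clusterings gave -2.58, -2.50 and -0.23 at resolution 0.2, -2.76, -2.42 and -0.996 at 0.8, -2.30, -2.27 and -0.66 with 500 to 6000 genes per cell, and -2.63, -2.53 and -0.62 with collagen genes among the features. *Col11a1* was thus under 2-fold with types set cell by cell and in each of these clusterings. Under 10% mitochondrial UMIs they were -2.88, -2.77 and -1.26, and without doublet removal *Col2a1* and *Col11a2* were at -2.58 and -2.49. Blood cell-like cells had log2 ratios of -0.81 (-0.86 to -0.76) for *Col1a1*, -0.64 (-0.70 to -0.58) for *Col1a2* and -0.34 (-0.40 to -0.27) for *Col3a1*, and 3 members past 2-fold, beside 5.03% of 8113 genes. These were again *Col2a1*, at -9.61, *Col11a1*, at -3.04, and *Col11a2*, at -3.43, and came to -3.32, -2.10 and -0.61 without the marker-rich cell and -3.16, -1.70 and -0.42 with types set cell by cell. Without doublet removal, the blood cell-like ratio was 0.02 for *Col1a1*, 0.12 for *Col1a2* and 0.30 for *Col3a1*.

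Tendon-like cells had the most members past 2-fold between the libraries. Of the 9 members, 3 were at least 2-fold higher and 3 at least 2-fold lower in the *Piezo1* fl/fl library, beside 9.84% of 7350 genes past 2-fold. *Col3a1* had a log2 ratio of 1.57 (1.54 to 1.60), *Col5a3* of 1.53 (1.25 to 1.82) and *Col5a1* of 1.004 (0.92 to 1.09). *Col11a2* had -2.98 (-3.32 to -2.65), *Col2a1* -2.05 (-2.77 to -1.36) and *Col11a1* -1.17 (-1.26 to -1.07). Type I was lower too, at -0.48 (-0.50 to -0.47) for *Col1a1* and -0.58 (-0.60 to -0.57) for *Col1a2*, and *Col5a2* had 0.59 (0.53 to 0.65). The tendon-like clusters also differed in other markers. Their fibroblast list, with all 7 genes seen in both, had 1326 CPM in sum in the control, with *Sema3c* the most abundant at 590.3 CPM, and 5301 CPM in the *Piezo1* fl/fl library, with *Ly6a* the most abundant at 2055 CPM. Their tendon list, with all 6 genes seen in both, had 27959 and 11669 CPM, most of it *Fmod*. The part of these markers in the ratios was not tested. With types set cell by cell, *Col3a1* came to 0.38, *Col5a1* to 0.36, *Col5a3* to 0.38, *Col11a1* to 0.19, *Col2a1* to -0.60 and *Col11a2* to -2.05. At resolutions 0.2 and 0.8 *Col3a1* was at 0.50 and 0.87, *Col5a3* at 0.08 and 0.84, *Col5a1* at 0.36 and 0.52, and *Col11a1* at -0.70 and -0.92. These set unlike groups side by side, since at both resolutions the *Piezo1* fl/fl library had no SSPC-1-like class and 1363 and 1427 tendon-like cells, while the control had both classes, with 210 and 211 tendon-like cells. With 500 to 6000 genes per cell *Col5a3* was at 0.82, *Col11a1* at -0.60 and *Col2a1* at -1.32, and with collagen genes among the clustering features they were at 0.87, -0.63 and -1.42. Thinned cells took *Col2a1* to -1.17, and subtraction of the blood cell-like level took *Col11a1* to -0.96, with the marker-rich cell again in the control level taken off. *Col5a1*, right at 2-fold, lay under it with most of the alternatives tried. *Col11a2* was the only member that stayed past 2-fold under each of the alternatives tried here.

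In lining-like cells 2 of the 7 members with enough UMIs were past 2-fold, both higher in the *Piezo1* fl/fl library, beside 7.12% of 4468 genes and an all-gene median log2 ratio of 0.16. *Col3a1* had a log2 ratio of 1.505 (1.44 to 1.57) and *Col5a2* of 1.06 (0.90 to 1.22). *Col1a1* had 0.65 (0.60 to 0.70), while *Col1a2* was nearly level, at 0.09 (0.01 to 0.16). The lining list of these cells, with all 6 genes seen in both, had 145642 CPM in the control and 48626 CPM in the *Piezo1* fl/fl library, nearly all of it *Prg4* at 135144 and 44248 CPM. Its part in the ratios was not tested. With the blood cell-like level subtracted, *Col3a1* came to 2.11 and *Col1a1* to 1.23. With collagen genes among the clustering features *Col5a2* came to 0.66 and *Col1a2* to -0.68, and with types set cell by cell to 0.82 and -0.23. Pericyte-like cells had 2 of 7 members with enough UMIs at least 2-fold lower in the *Piezo1* fl/fl library, beside 1.53% of 6335 genes past 2-fold. They were *Col5a3*, at -1.41 (-1.89 to -0.94), and *Col11a1*, at -1.33 (-2.21 to -0.50) from 38 and 19 UMIs. Subtraction of the blood cell-like level took *Col5a3* to -2.34. *Col11a1* was at -3.32 without doublet removal, -2.44 under 10% mitochondrial UMIs and -1.97 with thinned cells. Its pericyte-like levels of 29.2 and 11.6 CPM lay below the blood cell-like ones. These were 116 CPM in the control without the marker-rich cell and 27.1 CPM with *Piezo1* fl/fl, and so also lower in that library. Endothelial-like cells had 1 of 6 such members past 2-fold, beside 3.97% of 4382 genes, which was *Col11a1* at -1.23 (-2.16 to -0.37). It was under 2-fold with 500 to 6000 genes per cell, at -0.24, without doublet removal, at -0.55, and with thinned cells, at -0.77. Its endothelial-like levels of 65.6 and 27.9 CPM lay below the blood cell-like level in the control and level with it in the *Piezo1* fl/fl library. The part of free RNA in the *Col11a1* ratios of these types was not tested.

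**Figure D3:**
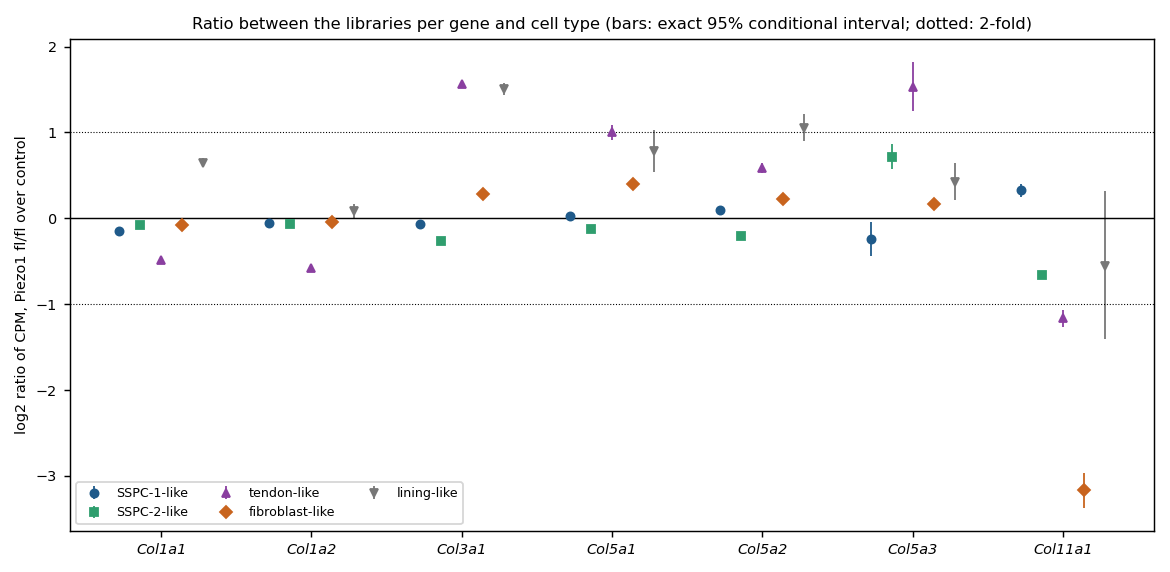
Log2 ratio of CPM, *Piezo1* fl/fl over control, for the members with most UMIs in types found in both libraries; bars are exact 95% conditional intervals and dotted lines mark 2-fold. *Col1a1* and *Col1a2* lie near 0 in SSPC-1-like, SSPC-2-like and fibroblast-like cells, *Col3a1* lies at 1.57 in tendon-like and 1.505 in lining-like cells, and *Col11a1* lies at -3.17 in fibroblast-like cells, where control cells rich in chondrocyte markers are included.

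Other genes that make, trim, crosslink or break down fibrillar collagen were read from a list of 49, and those named were chosen after their values were seen. Of 47 with enough UMIs in the control, 13 were at least 2-fold higher in SSPC-2-like than in SSPC-1-like cells and 6 lower, and in the *Piezo1* fl/fl library 12 and 9 of 48, beside the shares over all genes given with the members. Of the 14 genes for chain modification and folding, 4 were at least 2-fold higher among control cells and 3 among *Piezo1* fl/fl cells, beside 5.04% and 4.96% of all genes compared. Those of the control were the prolyl hydroxylase subunits *P4ha2* at 2.57 (2.27 to 2.89) and *P4ha3* at 2.21 (1.97 to 2.46), the lysyl hydroxylase *Plod2* at 1.82 (1.72 to 1.91) and the chaperone *Fkbp10* at 1.16 (1.03 to 1.30). The crosslinking enzyme *Loxl2* had 2.14 (2.08 to 2.21), and the collagen-cleaving *Mmp13* and *Mmp14* 4.03 (3.91 to 4.16) and 2.75 (2.66 to 2.84), of which *Mmp13* is a marker used for naming. Proteins of the fibril surface went both ways, with *Lum* at 2.81 (2.75 to 2.86) and *Col12a1* at 1.84 (1.81 to 1.87) but *Dcn* at -1.30 (-1.32 to -1.28), *Bgn* at -1.17 (-1.20 to -1.13), *Fmod* at -1.76 (-1.79 to -1.72) and *Col14a1* at -2.50 (-2.77 to -2.24). Of the other fibrillar chains, *Col27a1* had 1.84 (1.65 to 2.04), with 209 CPM in SSPC-2-like cells, and *Col24a1* was at 73.0 CPM in mature osteoblast-like and 11.9 CPM in SSPC-2-like cells. Between mature osteoblast-like and SSPC-2-like cells, 4 of 46 listed genes were higher and 10 lower, beside 4.57% and 15.4% of all genes compared. *P4ha3*, at -4.47 (-6.35 to -3.11), and *Col12a1*, at -4.20 (-4.37 to -4.02), were low there together with *Col3a1*.

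Between the libraries, listed genes past 2-fold in SSPC-1-like cells were 1 upward and 3 downward of 48, beside 4.23% of all genes compared in either direction. They were 1 and 2 of 46 in SSPC-2-like cells, beside 3.63%, and 1 and 5 of 47 in fibroblast-like cells, beside 3.75%. In tendon-like cells 7 of 44 were higher and 6 lower, beside 6.57% and 3.27% of all genes compared, among them *Col14a1* at 3.13 (2.85 to 3.43), *P4ha3* at 2.37 (1.70 to 3.13), *Lum* at 1.44 (1.28 to 1.60) and *Fmod*, a marker used for naming, at -1.25 (-1.28 to -1.22). In lining-like cells 4 of 35 were higher and none lower, beside 4.99% and 2.13%, and these were *Plod2* at 1.64 (1.30 to 1.99), *Lum* at 1.48 (0.93 to 2.06), *Lox* at 1.44 (0.71 to 2.25) and *Loxl1* at 1.02 (0.69 to 1.37).

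For each member the genes with the most similar pattern were found by Pearson's r of log2 levels over the 19 named types of both libraries, among 10544 genes. Types of a library share its depth and preparation, and r is given as a description. *Col1a1* was most like *Creb3l1* (r = 0.975), *Pycr1* and *P3h1*, and *Col1a2* most like *Srpx2* (0.962), *Creb3l1* and *Pycr1*. *Col3a1* had lower values, with *Efs* (0.920), *P4ha3* and *Igdcc4*. *Cercam* (0.9696), *Pycr1* and *Mmp2* came first for *Col5a1*, and *P3h1* (0.972), *Mmp2* and *Creb3l1* for *Col5a2*. *Col5a3* was most like *Kctd11* (0.867), *Insyn1* and *Zmat3*. For *Col11a1* they were *Galnt5* (0.916), *Ccn4* and *Runx2*, and for *Col11a2* *Pla2g5* (0.978), *Bmp8a* and *Cgref1*. *Col2a1* was most like *Col9a2* (0.833), *Meltf* and *Hapln1*. *Creb3l1*, *P3h1*, *P4ha3*, *Mmp2* and *Runx2* belong to the pathway list, and *Runx2* and *Hapln1* are markers used for naming. Among the members, *Col1a1* and *Col1a2* had r = 0.987 and *Col5a1* and *Col5a2* 0.971, while *Col5a3* had -0.00914 with *Col11a1* and 0.778 with *Col3a1*.

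Gene positions were taken from GENCODE vM21 on GRCm38, in which 31107 of the 31253 feature identifiers were found, since the authors' build is not given in the sources used here. *Col1a1* (ENSMUSG00000001506) lies at chr11:94936224-94953042 and *Col1a2* (ENSMUSG00000029661) at chr6:4504814-4541544, both on the plus strand. *Col3a1* (ENSMUSG00000026043, chr1:45311538-45349706, plus) and *Col5a2* (ENSMUSG00000026042, chr1:45374321-45503282, minus) are neighbours whose 3′ ends face each other over 24614 bases with 0 annotated genes between them. They parted in mature osteoblast-like cells, where *Col5a2* was near its highest level and *Col3a1* low. *Col5a1* (ENSMUSG00000026837) lies at chr2:27886425-28039514 on the plus strand and *Col5a3* (ENSMUSG00000004098) at chr9:20770050-20815067 on the minus strand. *Col2a1* (ENSMUSG00000022483) lies at chr15:97975602-98004695 on the minus strand, *Col11a1* (ENSMUSG00000027966) at chr3:114030540-114220718 and *Col11a2* (ENSMUSG00000024330) at chr17:34039437-34066685, both on the plus strand. Annotated genes overlap *Col1a2* (*Gm43921*), *Col3a1* (*Gm47302*) and *Col5a2* (*Gm38211*) on the same strand, and *Col5a1* (*2810430I11Rik* and *Gm13372*) and *Col5a3* (*Gm26274*) on the other strand. None of these overlapping genes is among the features, so their counts could not be set beside those of the members.

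Since *Col5a3* and *Col11a1* differ from *Col3a1* and *Col5a1* in the types where they are highest, the 250 bases before the starts of these 4 genes are shown to set these promoters side by side. RefSeq promoters (GRCm38.p6) were found for 6 of the 9 members, all but *Col1a1*, *Col5a2* and *Col2a1*. Capitals mark the motifs searched, CCAAT (the CCAAT box), TATAAA (the TATA box), GGGCGG (the GC box), TGTGGT (bound by Runx factors) and AACAAT (bound by Sox factors), on either strand, and sequences run 5′ to 3′ on the strand of the gene.
*Col3a1*: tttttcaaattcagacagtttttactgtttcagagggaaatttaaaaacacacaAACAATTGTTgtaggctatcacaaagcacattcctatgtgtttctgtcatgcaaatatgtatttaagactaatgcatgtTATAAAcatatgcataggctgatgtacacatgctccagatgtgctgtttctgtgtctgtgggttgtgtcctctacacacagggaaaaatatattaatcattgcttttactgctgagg
*Col5a1*: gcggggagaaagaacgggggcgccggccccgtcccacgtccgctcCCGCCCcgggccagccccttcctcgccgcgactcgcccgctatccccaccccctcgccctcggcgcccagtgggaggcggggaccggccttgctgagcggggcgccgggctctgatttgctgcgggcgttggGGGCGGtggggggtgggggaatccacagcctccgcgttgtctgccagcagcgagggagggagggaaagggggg
*Col5a3*: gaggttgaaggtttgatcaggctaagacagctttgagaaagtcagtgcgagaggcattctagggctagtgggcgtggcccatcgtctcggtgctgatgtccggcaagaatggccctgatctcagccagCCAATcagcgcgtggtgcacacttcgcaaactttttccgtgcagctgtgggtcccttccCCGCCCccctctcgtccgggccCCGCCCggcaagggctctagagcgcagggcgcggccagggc
*Col11a1*: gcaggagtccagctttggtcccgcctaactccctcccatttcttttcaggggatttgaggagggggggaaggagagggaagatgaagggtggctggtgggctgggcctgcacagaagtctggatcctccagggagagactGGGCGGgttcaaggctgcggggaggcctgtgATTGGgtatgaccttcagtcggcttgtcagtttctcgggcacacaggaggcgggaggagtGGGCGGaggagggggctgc
The windows are chr1:45311288-45311537 (plus), chr2:27886175-27886424 (plus), chr9:20815068-20815317 (minus) and chr3:114030290-114030539 (plus). GGGCGG was found in 5 of the 6 member windows, the exception being *Col3a1*, and in 32.7% of 32851 windows of the same length. CCAAT was in 3 of 6 (*Col1a2*, *Col5a3* and *Col11a1*), beside 33.8% of all, and TATAAA in 2 of 6 (*Col3a1* and *Col11a2*), beside 12.4%. AACAAT was in *Col3a1* alone, on both strands in overlapping letters, beside 9.42% of all, and TGTGGT in 0 of 6, beside 14.0%. A match describes letters and does not show that a factor binds. The *Col3a1* window held 35.2% G or C and the *Col5a1* window 76.4%.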

How the data were processed

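The deposited values are whole-number counts of UMIs per gene and barcode, which the authors made from BD Rhapsody reads with fastp, UMI-tools and STAR (Seurat 4.0.3 was also named). Filters required 1000 to 5000 detected genes per barcode and less than 25% of its UMIs from mitochondria, and Scrublet (scanpy 1.11.5) doublets, 46 control and 67 *Piezo1* fl/fl barcodes, were left out. Depth ran from 501 and 502 UMIs per barcode before filtering. Each library was clustered alone in Seurat 5.3.0 (R 4.3.3) with LogNormalize to 10000, 2000 variable features less all collagen genes, 20 principal components and Louvain resolution 0.4.

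Clusters were named from 15 marker lists without collagens: at least 3 markers in 10% of cells at 2 times the median of the other clusters, and a mean log2 ratio of at least 2, with classes within 1 of the best decided by the 10 leading genes. A cluster stayed unnamed where another class had more markers among those genes, or where it had no own marker there and low depth. These thresholds were set after the clusters were seen. Differences from the study may come from these rebuilt names. CPM carry exact Poisson, ratios exact conditional and shares Clopper-Pearson 95% intervals (scipy 1.17.1, Python 3.11.15), and the limit for a count of 0 is 3 counts. Genes compared had at least 50 UMIs over both sides. Cells under 2500 UMIs were left out of thinned shares. Code was checked on simulated data with known answers.

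All members were named, and for each the 3 genes with the highest Pearson r of log2(CPM + 10) among genes with at least 100 UMIs in each library. The members and lists were chosen with earlier results of these data known. Alternatives changed the filters, doublet removal, resolution, clustering features, cell typing, the CPM total, weighting of cells, depth and free RNA, and 4 regrouped cells.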

Additional observations from a re-analysis of the deposited data

Results flagged for a closer look

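Genes whose *Piezo1* fl/fl over control ratio passed 2-fold upward in one cell type and downward in another are given here. *Col5a3* had a log2 ratio of 1.53 in tendon-like and -1.41 in pericyte-like cells. The tendon-like value came to 0.08 at resolution 0.2, where the *Piezo1* fl/fl library had no SSPC-1-like class and its tendon-like class was larger, and to 0.38 with types set cell by cell. For *Col2a1* the ratio was 2.93 in SSPC-2-like and -9.70 in fibroblast-like cells. The SSPC-2-like value came to -4.68 at resolution 0.2 and -1.94 with types set cell by cell, and the fibroblast-like value to -2.79 without the cells rich in chondrocyte markers. For *Col11a2* it was 4.36 in SSPC-2-like and -6.23 in fibroblast-like cells. The former came to -1.35 at resolution 0.2, -0.25 with types set cell by cell and -0.95 with control osteoblast-like cells counted as SSPC-2-like, and the latter to -2.47 without the marker-rich cells. With 1 library per genotype, the differences between the cell types were not tested.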

How the results depend on the processing

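No paired analysis was possible because each genotype has 1 library. The next results kept their direction under each alternative that gave a value, while their size moved beyond counting error. For *Col1a1* in SSPC-2-like over SSPC-1-like control cells, 1.23 became 1.18 (under 10% mitochondrial UMIs), 1.197 (no doublet removal), 1.22 (resolution 0.2), 1.32 (resolution 0.8), 1.205 (collagen genes among the clustering features), 1.37 (types set cell by cell), 1.44 (a CPM total without the 9 genes), 1.22 (a CPM total without mitochondrial genes), 1.31 (a mean over cells), 1.30 (thinned cells), 1.30 (the blood cell-like level subtracted), 1.29 (osteoblast-like cells counted as SSPC-2-like) and 1.11 (tendon-like cells counted as SSPC-1-like). For *Col1a1* in SSPC-2-like cells between the libraries, -0.07 became -0.27 (500 to 6000 genes per cell), -0.13 (under 10% mitochondrial UMIs), -0.088 (resolution 0.2), -0.37 (resolution 0.8), -0.26 (collagen genes among the clustering features), -0.19 (types set cell by cell), -0.10 (a CPM total without the 9 genes), -0.12 (a mean over cells), -0.097 (thinned cells), -0.052 (the blood cell-like level subtracted) and -0.13 (osteoblast-like cells counted as SSPC-2-like). For *Col3a1* in SSPC-2-like over SSPC-1-like control cells, 1.92 became 1.87 (500 to 6000 genes per cell), 1.81 (under 10% mitochondrial UMIs), 1.86 (no doublet removal), 1.69 (resolution 0.2), 1.87 (collagen genes among the clustering features), 2.01 (types set cell by cell), 2.13 (a CPM total without the 9 genes), 1.94 (thinned cells), 2.16 (the blood cell-like level subtracted), 1.79 (osteoblast-like cells counted as SSPC-2-like) and 1.96 (tendon-like cells counted as SSPC-1-like). For *Col3a1* in fibroblast-like cells between the libraries, 0.28 became 0.33 (under 10% mitochondrial UMIs), 0.26 (no doublet removal), 0.29 (resolution 0.2), 0.42 (resolution 0.8), 0.30 (collagen genes among the clustering features), 0.31 (types set cell by cell), 0.33 (the blood cell-like level subtracted), 0.25 (marker-rich cells left out) and 0.30 (unnamed clusters counted as fibroblast-like). Of the results past 2-fold, the next turned direction. For *Col2a1* in SSPC-2-like over SSPC-1-like *Piezo1* fl/fl cells, 2.82 became -0.31 (types set cell by cell). For *Col2a1* in SSPC-2-like cells between the libraries, 2.93 became -4.68 (resolution 0.2) and -1.94 (types set cell by cell). For *Col11a1* in tendon-like cells between the libraries, -1.17 became 0.19 (types set cell by cell). For *Col11a2* in SSPC-2-like cells between the libraries, 4.36 became -1.35 (resolution 0.2), -0.25 (types set cell by cell) and -0.95 (osteoblast-like cells counted as SSPC-2-like). The cause was not tested. Over the 105 results outside the first group, these included, 1545 values under alternatives included 988 within counting error of the value in the text and 1463 with its sign, and 563 of 624 values of the 43 results past 2-fold were still past it. The SSPC-1-like class was not found in the *Piezo1* fl/fl library at resolutions 0.2 and 0.8, nor a separate control mature osteoblast-like cluster at 0.2, so these gave no value. Leaving out marker-rich cells and regrouping osteoblast-like, tendon-like or unnamed clusters were chosen after seeing the data.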
